A study of Mus musculus with 18 samples.

Results

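The last density step compared 3 libraries of dendritic cells (DCs) that had migrated in collagen of 4.4 mg/ml with 3 libraries of DCs from collagen of 3.5 mg/ml, 6 of the 18 libraries in the series. They were chosen by the density in their titles, and the biological replicate number entered the model as a block. All cells were wild-type DCs grown with GM-CSF from the bone marrow of C57Bl6/J mice aged 8 to 12 weeks, and matured for 24 hours from culture day 8 with lipopolysaccharide (LPS, 200 ng/ml), a bacterial product. Both groups migrated in bovine collagen toward a source of the chemokine CCL19, and RNA was taken 5 hours after the gradient was set up. The other groups used here were collagen of 1.7 and 2.6 mg/ml and 2 groups in suspension whose titles and library names contradict each other on CCL19. All 18 libraries entered the same fit and share its estimate of the spread, and of the suspension groups themselves only levels are described. The cells are a bone marrow culture and not a sorted population, and in such bulk RNA fewer cells of a type and less RNA per cell cannot be told apart.

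DCs take up antigen in tissues and, once matured, carry it along CCL19 and CCL21 gradients to lymph nodes. On the way they squeeze through the pores of collagen networks, and the density of the gel sets how narrow these pores are. Immediate early genes such as Egr1 and Fos are switched on within minutes of a signal that reaches the MAP kinases, without new protein synthesis, and dual-specificity phosphatases shut the same kinases down. Interferon-stimulated genes such as Mx2 and Ifit3 are transcribed when type I interferon activates factors that bind repeats of GAAA in their promoters.

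The 6 libraries held 13062944 to 23906193 counts each, and 13844 of the 29875 genes in the table passed the filter on low counts. Levels are given in CPM, counts scaled to 1000000 per library. A floor of 3 counts corresponds to 0.125 to 0.23 CPM in these libraries and covers counting error only. Libraries of 1 replicate number carry 1 common prefix and date in their names, so the numbers pair the libraries. Replicates 1 and 3 share the opening of this prefix, while replicate 2 has another. Among the collagen libraries only that at 4.4 mg/ml of replicate 2 has an added number at the end of its name, with no meaning given. Across genes, deviations from the group means correlated with r = 0.54 in replicate 1, 0.029 in replicate 2, and 0.576 in replicate 3 between the 2 densities, where genes are not independent replicates. The library at 4.4 mg/ml of replicate 2 stood apart. Its log2 CPM correlated with r = 0.908 with the library at 3.5 mg/ml of the same replicate but with 0.954 and 0.955 with the 2 libraries of replicate 1. Mitochondrial transcripts took 0.832% of its counts, against 1.63% to 2.9% in the other 5 libraries. Levels below are therefore given by replicate, and most list counts of this step also without replicate 2 or without this library alone.

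No gene passed a false discovery rate (FDR) of 0.1 in edgeR's quasi-likelihood test with the replicate block, 0% of the 13844 genes tested, and the lowest FDR was 0.232. At an unadjusted p under 0.05 there were 991 genes higher at 4.4 mg/ml, 7.16% of those tested, and 457 lower, 3.3%, so that 68.4% of the 1448 were higher. With offsets for GC content and length, this split was 935 higher and 995 lower, 48.4% higher. DESeq2 with the same block, the tool named in the methods of the study, called 221 genes higher, 1.63% of the 13575 with an adjusted p, and 40 lower, 0.295%. The call therefore depended on the tool. In the 221 genes the median difference of log2 CPM was 0.428 in replicate 1, 2.7 in replicate 2, and 1.3 in replicate 3, and replicate 2 gave the largest difference in 182. All 3 replicates were higher at 4.4 mg/ml for 179 of them, compared with 15% of all genes tested, but the 2 groups did not overlap in only 28, where 2.62% of all genes did so in this direction. The overlap came with replicate 1, since its library at 3.5 mg/ml lay above the library at 4.4 mg/ml of replicate 3 in 187 of the 221. Of the 40 lower genes, 39 were lower in every replicate, compared with 13.1% of all genes tested. In 24 of these 40 the groups did not overlap, compared with 2.59%. Both sets were chosen by their difference in these same libraries. Their shares are therefore partly fixed by that choice and are a description only. Without all libraries of replicate 2, edgeR called 0, with 228 at an unadjusted p under 0.05, and DESeq2 called 0, with 289 at an unadjusted p under 0.05. Without the single library at 4.4 mg/ml of replicate 2, edgeR called 0, with 531 at an unadjusted p under 0.05, and DESeq2 called 5 genes, Egr1, Chka, Mx2, Snn, and Cdh5. The filter removed Cdh5 from the full fit. Its log2 fold change of 24.9 there, compared with 2.54 for Egr1 and 0.99 for Chka, is too extreme to read as a size.

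Immediate early genes and interferon-stimulated genes had the largest median differences among the 24 gene lists in the full fit. All 27 listed immediate early genes were tested, 17 were higher at 4.4 mg/ml at an unadjusted p under 0.05 and 0 were lower, and DESeq2 called 14 higher and 0 lower. Their median log2 fold change was 1.12, compared with 0.01 over all genes tested, and the median difference was 0.701, 1.89, and 0.555 in replicates 1, 2, and 3. Egr1, a zinc finger transcription factor, had 4.11, 0.913, and 0.67 CPM in replicates 1 to 3 at 3.5 mg/ml and 20.4, 39.6, and 3.45 CPM at 4.4 mg/ml. It was higher at 4.4 mg/ml in 3 of 3 replicates, but its groups overlapped because replicate 3 at 4.4 mg/ml lay below replicate 1 at 3.5 mg/ml. Its log2 fold change was 3.41 (standard error 0.60, FDR = 0.232 by edgeR, and 1.21e-05 by DESeq2), on 9 to 464 counts per library. Fosb, a partner of Jun in the AP-1 factor, had 42, 2.11, and 0.372 CPM at 3.5 mg/ml and 148, 321, and 5.25 CPM at 4.4 mg/ml. The log2 fold change of Fosb was 4.45 (standard error 1.01, FDR = 0.254 by edgeR).

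Fos, Nr4a1, and Ier3 were named after their values were seen. Fos had 24.7, 5.27, and 3.57 CPM at 3.5 mg/ml and 112, 75.5, and 7.29 CPM at 4.4 mg/ml. Nr4a1, an orphan nuclear receptor, had 16.5, 2.6, and 0.521 CPM against 57.9, 93.2, and 2.7 CPM. Ier3, which limits apoptosis, had 1082, 298, and 231 CPM against 1590.1, 2649, and 494 CPM. Each was higher at 4.4 mg/ml in all 3 replicates, and replicate 3 was the lowest library at both densities. Without replicate 2, 8 of the 27 genes passed an unadjusted p under 0.05 in the higher direction, where 1.11% of all genes did. Without only the library at 4.4 mg/ml of replicate 2 the count was 10, where 2.38% of all genes did. The median log2 fold change of the list was 0.584 in the first case and 0.613 in the second.

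Dual-specificity phosphatases, the feedback inhibitors of the MAP kinases, were higher at an unadjusted p under 0.05 in 6 of 12, and DESeq2 called 0 of them. The median log2 fold change was 0.70. Dusp14 had 42.2, 43.8, and 47.8 CPM in replicates 1 to 3 at 3.5 mg/ml and 50.2, 87.6, and 98.3 CPM at 4.4 mg/ml, and Dusp2 had 6.24, 4.85, and 6.63 CPM against 13.9, 21.1, and 7.34 CPM. The groups of both genes did not overlap, yet neither passed the FDR (0.338 for each by edgeR). Without replicate 2 the count was 0 of 12, where 1.11% of all genes were higher, and without its library at 4.4 mg/ml 2 of 12, where 2.38% were.

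**Figure D1:**
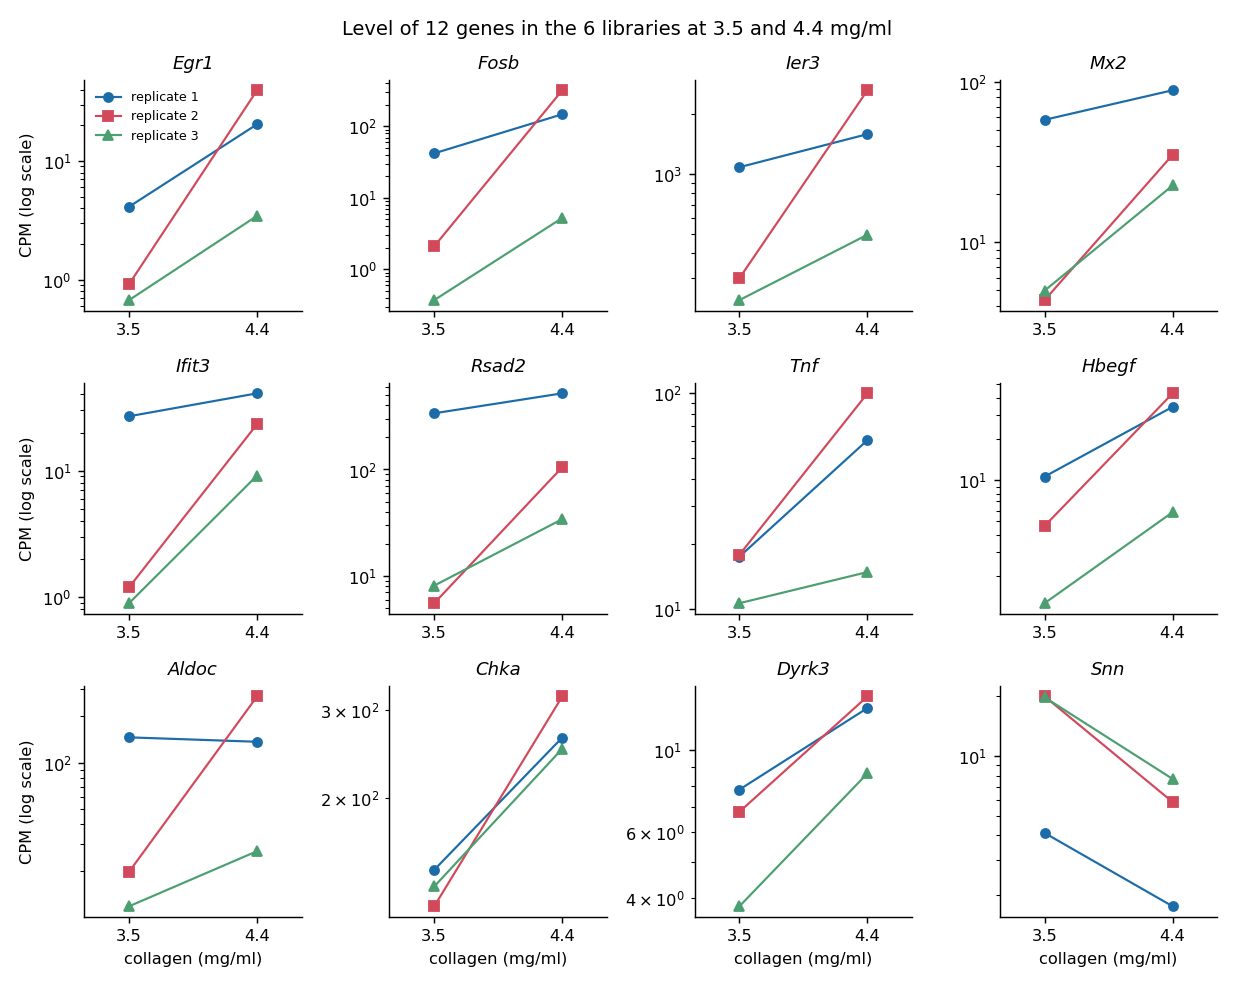
CPM on a log scale (y axis) of 12 genes at 3.5 and 4.4 mg/ml collagen (x axis), 1 point per library and 1 line per replicate. For Chka, Dyrk3, and no other gene shown, every library at 4.4 mg/ml lies above every library at 3.5 mg/ml. Replicate 2 has the steepest line for every gene shown but Dyrk3.

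Interferon-stimulated genes had the largest share of members past an unadjusted p under 0.05. Of 30 genes, all tested, 21 were higher at 4.4 mg/ml and 0 lower, and DESeq2 called 14 higher. The median log2 fold change was 1.08, and the median difference was 0.445, 1.61, and 0.901 in replicates 1, 2, and 3. Mx2, of a family of dynamin-like GTPases that block viruses, is annotated as a polymorphic pseudogene, so its RNA need not give a working protein. It had 57.9, 4.35, and 4.99 CPM in replicates 1 to 3 at 3.5 mg/ml and 88.6, 35.1, and 22.6 CPM at 4.4 mg/ml. Ifit3, which binds viral RNA together with Ifit1, had 26.9, 1.19, and 0.894 CPM against 40.8, 23.3, and 9.14 CPM. In both genes replicate 1 was high at both densities, and replicates 2 and 3 went from low to intermediate levels. The log2 fold changes were 1.89 for Mx2 (standard error 0.35, FDR = 0.232 by edgeR) and 2.57 for Ifit3 (standard error 0.54, FDR = 0.254 by edgeR).

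Rsad2, an antiviral radical SAM enzyme named after its values were seen, had 337, 5.55, and 8.12 CPM at 3.5 mg/ml and 519, 105, and 34.2 CPM at 4.4 mg/ml. Usp18, which removes ISG15 from proteins and dampens interferon signaling, was also named after its values were seen and had 326, 32.4, and 48.6 CPM against 460.5, 389, and 153 CPM. Ifi47, an interferon-inducible GTPase also named after its values were seen, was the one listed gene with groups that did not overlap, at 20.5, 22.9, and 24.3 CPM against 34.8, 31.2, and 77.9 CPM. The groups did not overlap in this direction for 2.62% of all genes tested, so 1 of 30 is near that share. Rsad2, Usp18, and Ifi47 were higher in 3 of 3 replicates, as were 21 of the 30 listed genes, compared with 15% of all genes tested. Without replicate 2, 10 of the 30 passed an unadjusted p under 0.05 with a median of 0.589, and without only the library at 4.4 mg/ml of replicate 2, 15 did with a median of 0.765. The shares of all genes higher at that threshold were 1.11% in the first case and 2.38% in the second.

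The GAAA repeat through which interferon acts was looked for in the promoters of these genes, a motif chosen after the data were seen. The 4 listed genes of smallest p that hold it are printed because their levels were higher together, and Oas3 and Cxcl10 are named for this alone. Promoters were taken from RefSeq (GRCm38.p6), 250 bases before to 50 after the start, and 10001 of the genes tested had one. The repeat was searched as GAAA, any 2 bases, and GAAA on both strands. It stood in 12 of the 23 interferon-stimulated genes with a promoter, 52.2%, compared with 4% of all promoters. It was in 12 of the 161 promoters of genes that DESeq2 called higher, 7.45%. The list was made of interferon targets, so its share describes the list and not this step. The 250 bases before the start are given 5′ to 3′ on the strand of the gene, with the repeat in capitals, as TTTC when it lies on the other strand.
Ifit3, plus strand of chr19:34583279-34583528: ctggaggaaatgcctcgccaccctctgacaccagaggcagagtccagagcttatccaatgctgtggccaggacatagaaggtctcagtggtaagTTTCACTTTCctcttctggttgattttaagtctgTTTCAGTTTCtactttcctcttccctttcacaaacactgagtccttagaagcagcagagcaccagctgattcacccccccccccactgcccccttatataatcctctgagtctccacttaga
Rsad2, minus strand of chr12:26456453-26456702: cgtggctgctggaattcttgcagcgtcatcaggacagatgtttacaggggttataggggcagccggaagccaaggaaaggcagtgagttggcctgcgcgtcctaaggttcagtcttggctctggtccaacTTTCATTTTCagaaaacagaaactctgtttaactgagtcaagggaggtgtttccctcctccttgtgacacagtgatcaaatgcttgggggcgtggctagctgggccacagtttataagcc
Oas3, minus strand of chr5:120777660-120777909: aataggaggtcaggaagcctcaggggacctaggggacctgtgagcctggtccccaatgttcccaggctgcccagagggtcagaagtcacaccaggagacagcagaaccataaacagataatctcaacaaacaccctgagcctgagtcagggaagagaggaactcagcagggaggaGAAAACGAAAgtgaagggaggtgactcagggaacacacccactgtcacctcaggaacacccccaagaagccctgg
Cxcl10, minus strand of chr5:92348890-92349139: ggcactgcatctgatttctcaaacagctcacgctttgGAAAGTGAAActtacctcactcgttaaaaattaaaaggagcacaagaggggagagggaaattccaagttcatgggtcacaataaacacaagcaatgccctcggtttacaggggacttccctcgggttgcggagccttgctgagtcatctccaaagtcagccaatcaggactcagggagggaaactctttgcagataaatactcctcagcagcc
Ifit3 holds the repeat at 2 places, starting 156 and 122 bases before its start, and the other 3 hold it once, at 120, 75, and 213 bases. Oas3, which makes an activator of RNase L, had 433, 66.9, and 105 CPM at 3.5 mg/ml and 438, 492, and 253 CPM at 4.4 mg/ml. Cxcl10, a chemokine for T cells, had 22.6, 2.04, and 4.62 CPM against 70.9, 18.9, and 4.7 CPM. Oas3 was nearly level in replicate 1 and Cxcl10 in replicate 3, and both differed most in replicate 2. A match describes letters in this window and not the binding of a factor.

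Among 30 listed cytokines, 27 were tested, 12 were higher at an unadjusted p under 0.05, 0 were lower, and DESeq2 called 6 higher. Their median log2 fold change was 0.86. Hbegf, a growth factor for the EGF receptor, had 10.6, 4.64, and 1.27 CPM in replicates 1 to 3 at 3.5 mg/ml and 34.3, 43.1, and 5.84 CPM at 4.4 mg/ml. Tnf, the main early inflammatory cytokine, had 17.5, 17.8, and 10.6 CPM against 60.5, 99.6, and 14.8 CPM. Replicates 1 and 2 lay apart from all libraries at 3.5 mg/ml in both genes, while replicate 3 at 4.4 mg/ml did not. The log2 fold changes were 2.47 for Hbegf (standard error 0.53, FDR = 0.254 by edgeR) and 1.83 for Tnf (standard error 0.44, FDR = 0.265 by edgeR). Il1b, named after its values were seen, had 2895, 771, and 373 CPM against 3132, 2107, and 1496 CPM, so that its gain was smallest in replicate 1. Of the 28 cytokines tested without replicate 2, 5 passed an unadjusted p under 0.05, and 7 of 28 did without its library at 4.4 mg/ml. Among all genes 1.11% were higher at that threshold in the first case and 2.38% in the second.

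Chemokines and their receptors were higher at an unadjusted p under 0.05 in 8 of 30 and lower in 0, with a median log2 fold change of 0.51 and 5 DESeq2 calls. Ccrl2, a receptor that binds chemerin without signaling, had 404, 27.5, and 19.4 CPM at 3.5 mg/ml and 381, 357, and 49.8 CPM at 4.4 mg/ml. Ccl3, which recruits monocytes and T cells, had 144, 77.3, and 52.6 CPM against 231, 345, and 84.6 CPM. Replicate 1 of Ccrl2 was slightly lower at 4.4 mg/ml, and none of the 30 genes had groups that did not overlap. Of the 31 tested without replicate 2, 4 passed an unadjusted p under 0.05, and 3 of 30 did without its library at 4.4 mg/ml. Of all genes, 1.11% were higher at that threshold in the first case and 2.38% in the second.

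Glycolysis and hypoxia genes rested on replicate 2. All 41 were tested, 21 were higher at an unadjusted p under 0.05 and 0 lower, the median log2 fold change was 0.82, and DESeq2 called 5 higher. The median difference was −0.102 in replicate 1, 1.88 in replicate 2, and 0.371 in replicate 3, with 14, 38, and 34 of the 41 genes higher in the respective replicate. Without replicate 2 and without only its library at 4.4 mg/ml, 0 of 42 tested identifiers passed an unadjusted p under 0.05, since Aldoa has 2 identifiers that pass the filter there. Aldoc, an aldolase of glycolysis, had 146, 19.7, and 11.8 CPM at 3.5 mg/ml and 137, 269, and 26.8 CPM at 4.4 mg/ml. Selenbp1, a selenium-binding oxidase, had 104, 1.62, and 2.46 CPM against 106, 255, and 2.65 CPM. Replicate 1 was high at both densities, replicate 2 went from low to highest, and replicate 3 stayed low. Slc2a1, the main glucose transporter, and Tpi1, a glycolytic isomerase, were named after their values were seen and were likewise highest in replicate 2 at 4.4 mg/ml. Slc2a1 had 879, 97.4, and 53.8 CPM against 857, 928, and 97.8 CPM, and Tpi1 had 4009.8, 679, and 756 CPM against 3642, 6174, and 1026 CPM.

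The hypoxia-inducible factors bind the core ACGTG, and the 2 listed genes of smallest p that hold it before their start are shown with the core in capitals, as CACGT on the other strand.
Selenbp1, plus strand of chr3:94932833-94933082: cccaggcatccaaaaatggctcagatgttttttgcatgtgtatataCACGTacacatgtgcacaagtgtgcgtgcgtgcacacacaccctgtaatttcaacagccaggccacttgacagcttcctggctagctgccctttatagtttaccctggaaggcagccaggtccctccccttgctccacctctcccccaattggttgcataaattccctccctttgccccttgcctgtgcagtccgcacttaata
Slc2a1, plus strand of chr4:119108495-119108744: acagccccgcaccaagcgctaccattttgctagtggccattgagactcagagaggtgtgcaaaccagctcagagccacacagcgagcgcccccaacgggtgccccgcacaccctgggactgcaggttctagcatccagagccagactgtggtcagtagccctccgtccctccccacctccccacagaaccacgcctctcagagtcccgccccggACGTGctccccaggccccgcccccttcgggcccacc
The core, searched on both strands over the 300-base window, was in 25 of the 37 glycolysis and hypoxia promoters, 67.6%, compared with 29.2% of all promoters. The genes were listed for this function, so the share describes the list and not this step. The SP1 box GGGCGG was also more frequent, in 86.5% of these promoters and 67.6% of all. The hypoxia core lies within the E-box CACGTG, which was in 10.8% of these promoters and 11.7% of all. Genes that DESeq2 called higher held the hypoxia core in 32.3%. They held the AP-1 site TGANTCA in 11.2%, compared with 6.37% of all promoters, and the ETS core CCGGAAGT in 1.86%, compared with 9.18%. Immediate early genes held the CArG box, also chosen after the data were seen, CC and GG around 6 bases of A or T, in 2 of 21 promoters, 9.52%, compared with 1.54% of all.

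**Figure D2:**
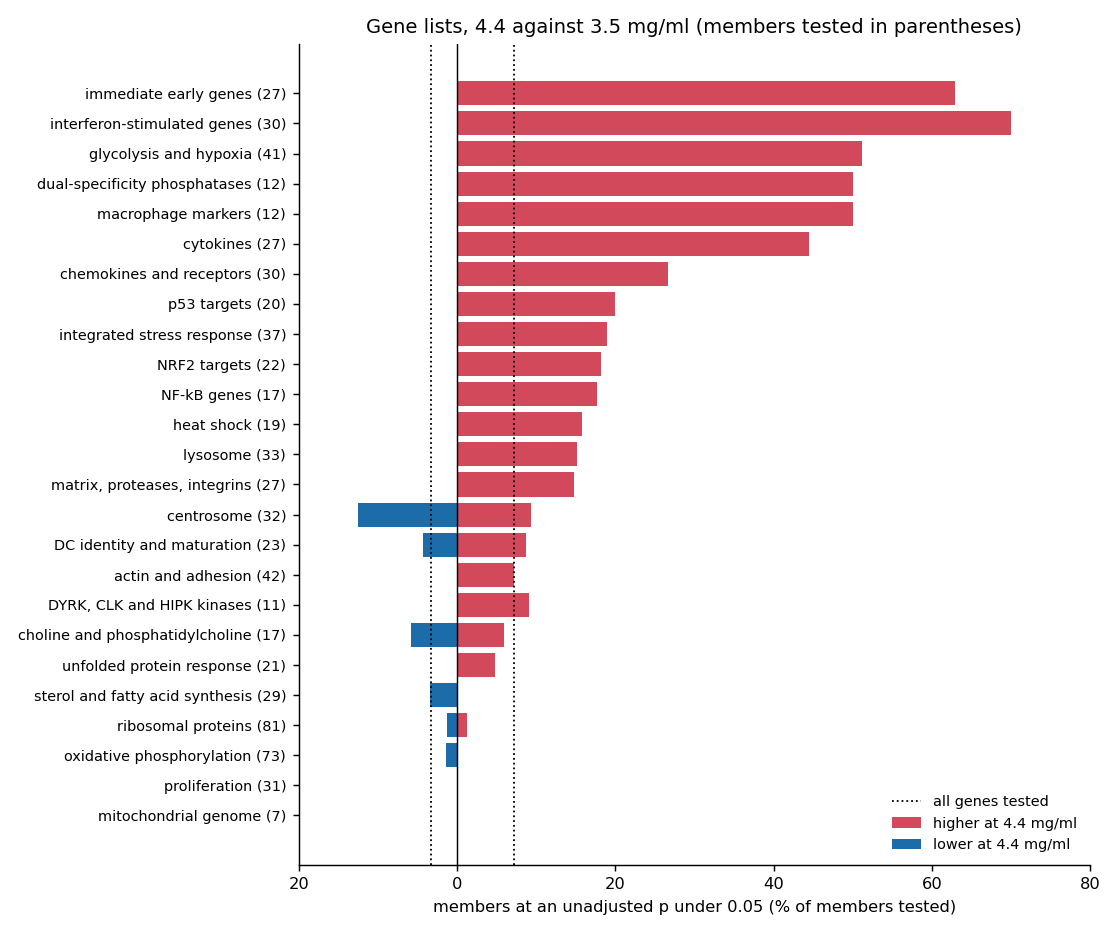
Share of the tested members of the 24 gene lists and of the macrophage markers (rows, number tested in parentheses) that were higher (red, to the right) or lower (blue, to the left) at 4.4 mg/ml at an unadjusted p under 0.05, in percent. Dotted lines mark the shares of all genes tested, 7.16% higher and 3.3% lower, and the immediate early and interferon-stimulated genes lie farthest to the right of them.

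In the lists of stress programs the median changed little, and a few single genes stood out. The integrated stress response lowers general translation through eIF2α phosphorylation while favoring Atf4. Its list had 37 genes tested with a median log2 fold change of −0.01, 7 of them higher at an unadjusted p under 0.05, against 1 without replicate 2 and 2 without its library at 4.4 mg/ml. Ppp1r15a, the phosphatase subunit that reverses this phosphorylation, had 381, 119, and 78.3 CPM at 3.5 mg/ml and 785, 1232, and 150.3 CPM at 4.4 mg/ml. Atf4, its transcription factor, had 960.1, 435, and 357 CPM against 1042, 1205, and 716 CPM. The log2 fold changes were 2.05 for Ppp1r15a (standard error 0.46, FDR = 0.254 by edgeR) and 0.93 for Atf4 (standard error 0.28, FDR = 0.310 by edgeR). The heat shock list had 3 of 19 genes higher and a median of −0.05. Of all genes tested, 7.16% were higher at an unadjusted p under 0.05, 1.11% without replicate 2, and 2.38% without its library at 4.4 mg/ml. Hspa1a, an inducible chaperone, had 20.2, 6.81, and 7.97 CPM against 40.6, 56.2, and 18.2 CPM. Bag3, its co-chaperone, had 71.2, 65.4, and 76.5 CPM against 121, 236, and 114 CPM, and its groups did not overlap. Hspa1a has the near-identical copy Hspa1b, so its count is uncertain.

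Among NRF2 targets, the antioxidant genes, 4 of 22 were higher, with Osgin1 at 55.1, 17.6, and 12.4 CPM against 78.1, 123, and 37.5 CPM, and Hmox1, heme oxygenase, at 4773, 588, and 213 CPM against 4038, 3856, and 686 CPM. Of p53 targets 4 of 20 were higher, among them the cell cycle inhibitor Cdkn1a, whose groups did not overlap at 2866, 1866, and 1879 CPM against 3384, 5837, and 3464 CPM, and Plk2, a stress-induced kinase. NF-κB genes were higher in 3 of 17, led by the regulators Nfkbid and Nfkbiz. Lysosomal genes were higher in 5 of 33, with the proteases Ctsd and Ctsa of smallest p. Genes of matrix, proteases, and integrins were higher in 4 of 27, among them Mmp14, a membrane-bound collagenase, at 345, 81.5, and 45.1 CPM against 439, 229, and 138 CPM. The unfolded protein response had 1 of 21 higher, the chaperone Hspa5, at 981, 575, and 547 CPM against 1436, 854, and 1174 CPM. All these counts are at an unadjusted p under 0.05, where 7.16% of all genes tested were higher. None of these lists had a gene lower at that threshold in the full fit. Without replicate 2 the counts were 0 for p53 targets, NF-κB, and lysosomal genes, 1 for NRF2 targets, matrix genes, and the unfolded protein response, and 3 for heat shock genes. The share of all genes was 1.11% there. Without only the library at 4.4 mg/ml of replicate 2 the counts were 0 for p53 targets and lysosomal genes, 1 for NF-κB genes and NRF2 targets, 2 for matrix genes and the unfolded protein response, and 4 for heat shock genes. The share of all genes was 2.38% there.

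Chka, choline kinase, the first enzyme of phosphatidylcholine synthesis, was the one of the 12 higher genes of smallest p with groups that did not overlap. It (ENSMUSG00000024843, plus strand of chromosome 19, 3851773 to 3894369 in GRCm38) had 143, 121, and 133 CPM in replicates 1 to 3 at 3.5 mg/ml and 264, 319.6, and 251 CPM at 4.4 mg/ml. Every library at 4.4 mg/ml lay above every library at 3.5 mg/ml, and the replicate differences of 0.88, 1.40, and 0.92 on the log2 scale were more alike than those of the lists above. The log2 fold change was 1.06 (standard error 0.21, FDR = 0.232 by edgeR and 0.000675 by DESeq2), on 1725 to 5857 counts per library. Of the 17 tested genes of choline and phosphatidylcholine synthesis, Chka was the single gene higher at an unadjusted p under 0.05. Lpcat1, which reacylates lysophosphatidylcholine, was the single gene lower, at 14.6, 41.6, and 21 CPM against 10.5, 14.7, and 15 CPM.

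Dyrk3 (ENSMUSG00000016526, minus strand of chromosome 1, 131127455 to 131138340 in GRCm38), a kinase that dissolves condensates, had 7.82, 6.81, and 3.8 CPM at 3.5 mg/ml and 12.9, 13.9, and 8.64 CPM at 4.4 mg/ml. The groups did not overlap, and the replicates differed by 0.72, 1.02, and 1.16 on the log2 scale. The log2 fold change of Dyrk3 was 0.97 (standard error 0.37, unadjusted p = 0.0171), and its FDR was 0.401 by edgeR and 0.174 by DESeq2, so neither tool called it at this step. It was the single gene of 11 tested DYRK, CLK, and HIPK kinases at an unadjusted p under 0.05. In edgeR without replicate 2, without replicate 3, or with no replicate block, 0 of the 11, and so not Dyrk3, passed that threshold. Without replicate 1, 2 of 12 tested kinases were higher. Clk2, a splicing kinase, was next by p, at 9.26, 18.5, and 11.8 CPM against 10.3, 9.13, and 8.29 CPM.

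Of 32 centrosome genes, 3 were higher and 4 lower at an unadjusted p under 0.05, where 7.16% and 3.3% of all genes were, and DESeq2 called 0 in either direction. Without replicate 2 both counts were 0, and without its library at 4.4 mg/ml they were 2 and 0. Akna, which recruits microtubule nucleators to the centrosome, had 87.8, 135, and 122 CPM at 3.5 mg/ml and 60, 54.6, and 80.7 CPM at 4.4 mg/ml, with no overlap and a log2 fold change of −0.82 (standard error 0.30, FDR = 0.380 by edgeR). Stil, a centriole duplication factor, had 4.46, 2.39, and 1.71 CPM against 6.54, 8.28, and 4.1 CPM. Odf2, an appendage protein of the mother centriole named after its values were seen, had 32.5, 43.6, and 43.8 CPM against 31.1, 24.8, and 25.5 CPM. Akna and Odf2 were lower in every replicate, and the groups of Odf2 did not overlap either. Actin and adhesion genes were higher in 3 of 42 and lower in 0, and the median was −0.04.

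**Figure D3:**
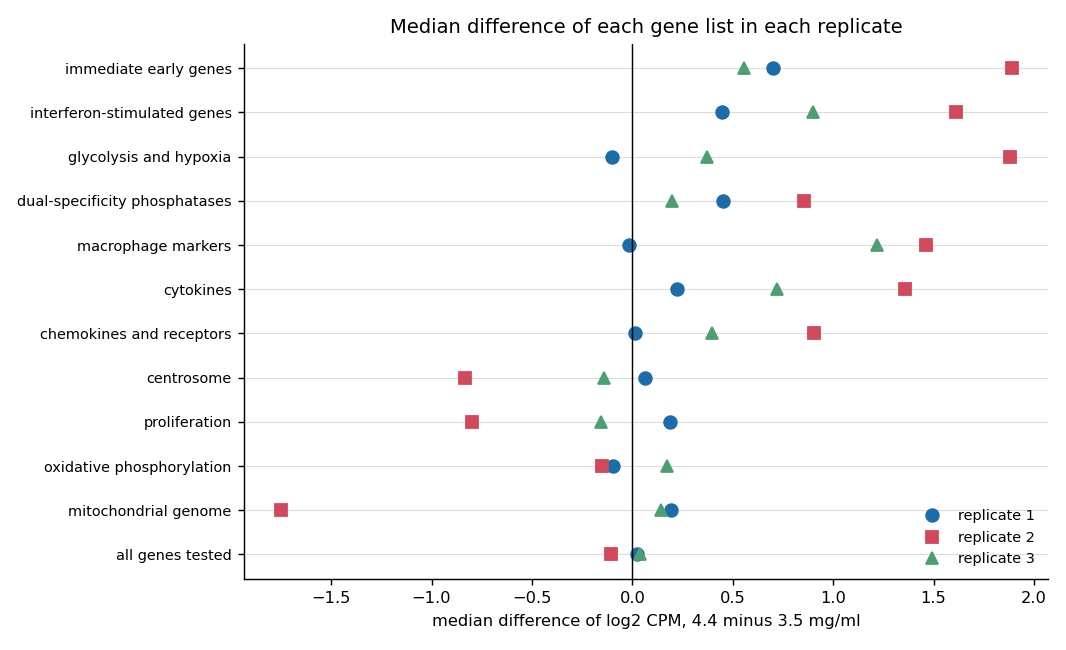
Median difference of log2 CPM between 4.4 and 3.5 mg/ml (x axis) over the tested members of 11 gene lists and over all genes tested (rows), 1 marker per replicate. Replicate 2 lies farthest from 0 in each of the 11 lists but oxidative phosphorylation, and the glycolysis median of replicate 1 lies at −0.102.

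The identity of the cells was checked by marker lists, whose part in the results above was not tested. Dendritic markers, all 13 detected in all 6 libraries, summed to 48871, 72078, and 111445 CPM at 3.5 mg/ml and 47719, 84425, and 120053 CPM at 4.4 mg/ml. Itgax, the integrin CD11c, had 274, 113, and 69.2 CPM against 293, 446, and 168 CPM, and 2 of 23 genes of DC identity and maturation were higher and 1 lower at an unadjusted p under 0.05. The lower one was Ciita, the activator of MHC class II genes, named after its values were seen, at 55.7, 55.6, and 62.8 CPM against 38.2, 35.8, and 27.7 CPM, with no overlap. The MHC class II genes H2-Ab1, H2-Aa, and H2-Eb1 did not follow it, being lower at 4.4 mg/ml in replicate 1 and higher in replicates 2 and 3. H2-Ab1 had 4110, 3660, and 5150 CPM against 3760, 7310, and 6170 CPM. Macrophage markers were higher too. Of 12, all tested, 6 were higher at an unadjusted p under 0.05 and 0 lower, the median log2 fold change was 0.92, and 6, 11, and 11 of the 12 were higher in replicates 1, 2, and 3. Without replicate 2, and without its library at 4.4 mg/ml, 1 of the 12 was higher at that threshold, where 1.11% and 2.38% of all genes were. Their sum was 5499, 1803, and 1022 CPM at 3.5 mg/ml and 4789, 6000.3, and 2472 CPM at 4.4 mg/ml, and Mrc1 was at 0 in 1 library. Fcgr1, a high-affinity IgG receptor that interferon also induces, had 376, 28.9, and 24.8 CPM against 391, 288, and 102 CPM.

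Neutrophil markers summed to 1369.8, 5499.9, and 2171 CPM at 3.5 mg/ml and 1206, 1554, and 3176 CPM at 4.4 mg/ml, with 0 of 14 past an unadjusted p under 0.05. The library at 4.4 mg/ml of replicate 2 thus held fewer neutrophil and more macrophage transcripts than its partner. Eosinophil markers summed to 26.2 to 170.3 CPM, and mast cell and basophil markers to 96.3 to 479.9 CPM, both highest in that same library, with 1 of 9 higher and 2 lower in the first list and 1 of 9 higher and 1 lower in the second at an unadjusted p under 0.05. Lymphocyte, stromal, and erythroid or megakaryocyte markers summed to 4.32 to 14.8, 11.9 to 22.1, and 31.9 to 211 CPM with 0 members past that threshold, and Cd3e, Cd3g, and Alas2 were at 0 in at least 4 of the 6 libraries. Of 7 tested genes of the mitochondrial genome, 0 passed an unadjusted p under 0.05, and their median difference was 0.19, −1.75, and 0.143 in replicates 1, 2, and 3. Proliferation genes had 0 of 31 past that threshold, ribosomal proteins 1 of 81 higher and 1 lower, oxidative phosphorylation 0 of 73 higher and 1 lower, and sterol and fatty acid synthesis 0 of 29 higher and 1 lower. Gapdh, a gene with many processed copies named after its values were seen, had 6.63 to 67.7 CPM and Rps6 0 to 0.677 CPM in the 6 libraries, so counts of genes with near-identical copies are uncertain.

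Ranked by p with the same sign in 3 of 3 replicates, the 12 higher genes were Egr1, Mx2, Chka, Rasgef1b, Ifit3, Cmpk2, Hspa1a, Hbegf, Trpm4, Ifit1bl1, Ptges, and Ppp1r15a, a rule set after no gene passed the FDR. Their edgeR FDR was between 0.232 and 0.254. Rasgef1b, an exchange factor for Ras-like GTPases, had 14.3, 3.86, and 3.05 CPM at 3.5 mg/ml and 36.4, 46.1, and 7.99 CPM at 4.4 mg/ml. Cmpk2, a mitochondrial nucleotide kinase induced by interferon, had 36.5, 5.06, and 2.83 CPM against 93.2, 17.8, and 8.74 CPM. Ptges, the synthase of prostaglandin E2, had 199.7, 22.5, and 7.45 CPM against 211, 601, and 40.5 CPM. Trpm4, a cation channel that calcium opens, had 19.1, 4.42, and 1.56 CPM against 27.7, 51.5, and 7.24 CPM. In these 4 genes replicate 1 had the smallest difference on the log2 scale, and replicate 3 had the lowest level at 4.4 mg/ml.

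The 12 lower genes of smallest p were Snn, Zfp709, Tbc1d10c, Zfp58, Gtf2e1, Tlr9, Igf2bp2, Ddx11, Spata2l, Tipin, Samd5, and Calhm2. Snn had 4.11, 20, and 19.8 CPM at 3.5 mg/ml and 1.76, 5.89, and 7.69 CPM at 4.4 mg/ml, a log2 fold change of −1.48 (standard error 0.29, FDR = 0.232 by edgeR). Tlr9, the receptor for unmethylated DNA, had 3.77, 10.6, and 15.5 CPM against 2.89, 0.939, and 5.2 CPM. Ddx11, a DNA helicase, had 9.53, 12.6, and 14.8 CPM against 6.14, 3.41, and 5.5 CPM, and Spata2l had 23.7, 28.5, and 37.8 CPM against 14.5, 13.3, and 20.4 CPM. For Ddx11, Spata2l, and Zfp58 the groups did not overlap. Replicate 1 of Snn was the lowest at both densities, while that of Tlr9 was the lowest at 3.5 mg/ml only. Gtf2e1, a subunit of the general transcription factor TFIIE, had 2.47, 7.23, and 13.1 CPM against 1.13, 1.2, and 4.25 CPM, and Igf2bp2, an RNA-binding protein, had 12.5, 21.8, and 32.7 CPM against 10.4, 6.57, and 14.5 CPM.

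Whether the last step differed from the earlier steps was tested in the same fit as the step from 3.5 to 4.4 mg/ml minus the mean of the steps from 1.7 to 2.6 and from 2.6 to 3.5 mg/ml. No gene passed the FDR by edgeR, with 573 genes positive at an unadjusted p under 0.05, 4.14% of those tested, and 176 negative, 1.27%. With GC and length offsets these were 452 and 469, without replicate 2 they were 82 and 46, and without its library at 4.4 mg/ml 186 and 105. DESeq2 also called 0, with 1001 at an unadjusted p under 0.05. The steps share the libraries at 3.5 mg/ml, so their values are given side by side. Immediate early genes had a median log2 fold change of 0.42 at the first step, −0.15 at the middle step, and 1.12 at the last step. For interferon-stimulated genes these medians were 0.08, −0.01, and 1.08, for cytokines 0.16, −0.32, and 0.86, and for glycolysis and hypoxia genes −0.12, −0.21, and 0.82. The difference between steps was positive at an unadjusted p under 0.05 in 13 of 27 immediate early genes, 15 of 30 interferon-stimulated genes, 10 of 27 cytokines, and 16 of 41 glycolysis and hypoxia genes, and negative in 0 of each. These list counts were not repeated without replicate 2 or without its library at 4.4 mg/ml. At the last step alone, 0 of 42 glycolysis and hypoxia identifiers were higher at that threshold without replicate 2.

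In single genes the difference between steps was 3.21 on the log2 scale for Egr1, 2.64 for Ifit3, 1.78 for Mx2, 2.59 for Trpm4, 3.41 for Ptges, and 2.62 for Siglec1, a sialic acid-binding receptor of macrophages that interferon induces. Each had an FDR of 0.872 for this difference by edgeR. On the negative side, by the same rule, were Zfp709, Snn, Zfp867, Zfp58, Gtf2e1, and Igf2bp2. For Chka the difference was 0.75 (unadjusted p = 0.015, FDR = 0.872 by edgeR) and for Dyrk3 0.56 (unadjusted p = 0.272, FDR = 0.881 by edgeR). Of the 221 genes that DESeq2 called higher at the last step, the mean was the highest of all 6 groups at 4.4 mg/ml in 204 and the lowest of the 4 densities at 3.5 mg/ml in 90. All 40 lower genes had their lowest mean of all 6 groups at 4.4 mg/ml. Both sets were chosen by the difference between 4.4 and 3.5 mg/ml, so these positions follow in part from that choice.

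**Figure D4:**
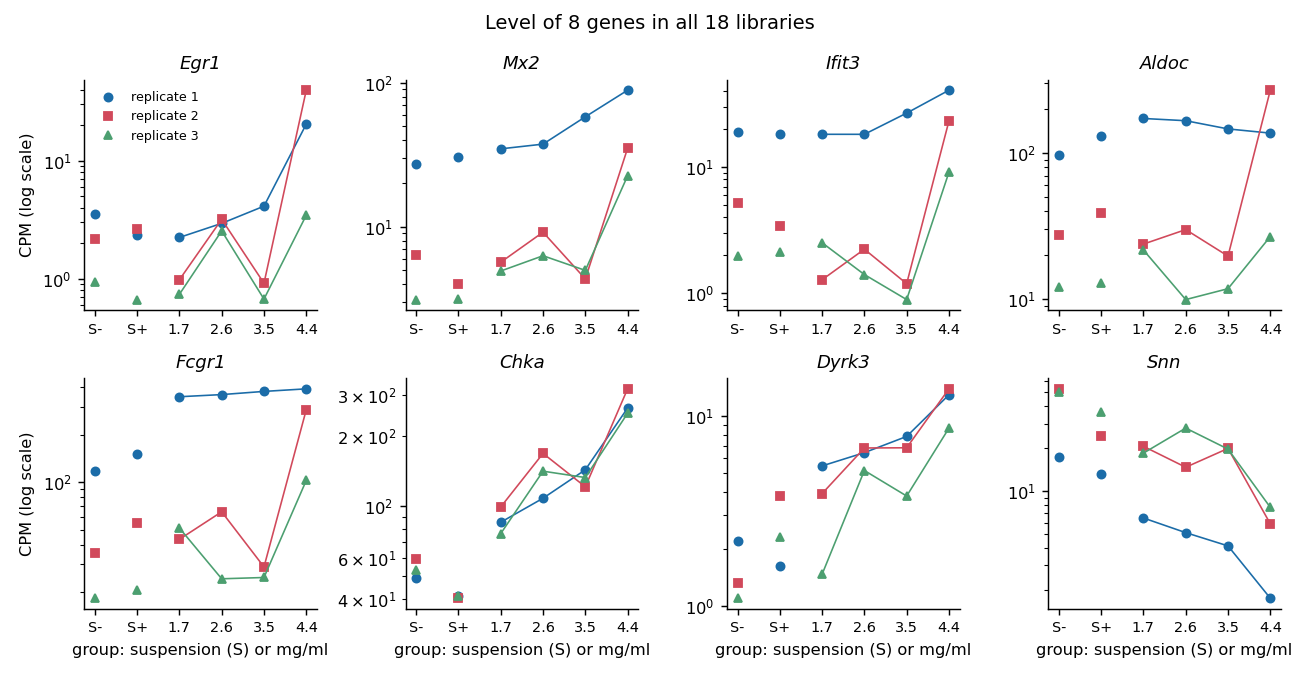
CPM on a log scale (y axis) of 8 genes in all 18 libraries, by group (x axis, S- and S+ are suspension titled without and with CCL19, numbers are collagen in mg/ml), 1 marker per library and lines joining the collagen libraries of a replicate. Egr1, Mx2, and Ifit3 are highest at 4.4 mg/ml in each replicate, and Aldoc and Fcgr1 of replicate 1 lie above the other replicates at 1.7 to 3.5 mg/ml.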

How the data were processed

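The authors prepared stranded mRNA libraries, sequenced single-end reads, aligned them with STAR 2.7.0f to GRCm38, and deposited raw counts for each Ensembl gene identifier, used here unchanged. The methods name RSEM for TPM values, and the tool behind the deposited counts is not given in the sources used here. Symbols came from GENCODE M21 for 29866 of 29875 genes. All 18 libraries were fitted together in edgeR 4.0.16 (R 4.3.3) with TMM scaling, filterByExpr, and group plus replicate number, and the contrasts were tested with the quasi-likelihood F-test at a Benjamini-Hochberg FDR of 0.1. DESeq2 1.42.0 was the alternative tool. It gave no adjusted p for 269 genes, which were left out of its counts. Standard errors were derived from each F value, and log2 CPM had a prior count of 2 on TMM-scaled libraries. Conditions and replicate numbers came from the titles. The replicates are labeled biological, and each number has its own date in the library names. Nothing says whether they were separate mice or cultures, so p-values measure the spread between these libraries.

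Named genes were, by rule, Dyrk3, Chka, the 2 genes of smallest p of each of 24 gene and 8 marker lists, the 6 of smallest p in each direction for the difference between steps, and, since no gene was called, the 12 of smallest p in each direction with the same sign in 3 of 3 replicates, at least 1 CPM, and no Gm or Rik symbol. The comparison, its members, lists, and motifs were chosen with earlier results of these data known. Alternatives in DESeq2 other than the planned fit, counts at an unadjusted p, and genes so marked were chosen after seeing the data. The fit was tested on simulated data.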

Additional observations from a re-analysis of the deposited data

How the results depend on the processing

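The number of genes called at an FDR of 0.1 changed from 0 to 261 with DESeq2 and the replicate number, to 2 (Chka and Egr1) with DESeq2 and no replicate number, to 7 with GC and length offsets (span 0.5) plus the replicate block (Egr1, Cmpk2, Rasgef1b, Mx2, Snn, Chka, and Dnajb4), and to 411 with no filter on low counts. Of those 411, the filter removes 7, and the cause was not tested. It stayed at 0 with no replicate block (469 at an unadjusted p under 0.05), with DESeq2 size factors, with the 12 collagen libraries, at an FDR of 0.05, and with the 6 libraries (800 at an unadjusted p). Leaving out a replicate or a library gave 0 to 342 genes with edgeR, 342 of them without replicate 1 at 4.4 mg/ml, 49 without replicate 1, 33 without replicate 3 at 4.4 mg/ml, and 5 without replicate 1 at 3.5 mg/ml. With DESeq2 it gave 0 to 649, with 649 without replicate 1, 259 without replicate 3, 5 without replicate 2 at 4.4 mg/ml, and 0 without replicate 2. At an unadjusted p under 0.05 the leave-outs ranged from 228 to 2287 with edgeR and from 289 to 2213 with DESeq2 (663 without replicate 2 at 4.4 mg/ml), and DESeq2 without the replicate number gave 609. With GC and length offsets, 48.4% of the 1930 genes at an unadjusted p under 0.05 were higher, compared with 68.4% of 1448. The difference between steps called 165 genes with no filter, 0 to 166 with DESeq2 leave-outs (166 without replicate 1, 2 without replicate 3, 1 without replicate 2 at 4.4 mg/ml), and 0 under the other settings. Where 1 library is left out, the lone libraries are assumed to vary like the others. Among the named genes, none of these called, leave-outs turned the sign of mt-Nd2 (−1.39 to 0.0427, positive without replicate 2 at 0.0286 and without replicate 2 at 4.4 mg/ml, with DESeq2 at 0.0228 and 0.0303), mt-Nd6 (−0.973 to 0.0293, positive without replicate 2, with DESeq2 at 0.0224), S100a9 (−0.95 to 0.104, positive without replicate 2, with DESeq2 at 0.0961), and Ppbp (negative without replicate 3 at −0.0524 and, with DESeq2, −0.0308). Genes with few counts, such as Fosb with 5 in 1 library, are limited by depth.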
